A study of Mus musculus with 2 samples.

Results

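T-box genes encode transcription factors that share a DNA-binding domain. Here 9 members, most of them with known roles in the limb, the skeleton or neighbouring mesenchyme, were followed in growth plate cartilage. They were Tbx1, Tbx2, Tbx3, Tbx4, Tbx5, Tbx15, Tbx18, Tbx20 and Tbx22, taken as every probe set whose annotation names that gene alone. This gave 19 probe sets for 9 genes, out of 18193 genes named in this way on the arrays. The samples were 2 Affymetrix mouse genome arrays. One array held RNA enriched in columnar and hypertrophic chondrocytes and the other RNA enriched in round chondrocytes, both from E17.5 cartilage of wild-type embryos of the C57BL/6J strain. Each array received a mixture of 3 cartilage portions, so 1 array stands for each group, no animal can be told from another, and no value below has a replicate error or a test. The labels name neither the bone nor the limb, although the study's methods speak of femoral cartilage for its round chondrocyte RNA.

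The T-box family regulates where mesenchyme grows and what it becomes. In the mouse, Tbx4 is expressed in the hindlimb bud and Tbx5 in the forelimb bud, where each is needed for normal outgrowth. Tbx2 and Tbx3 are mainly repressors that act at the margins of the limb and in many other organs. Tbx15, Tbx18 and Tbx22 form a subgroup of the family that also acts largely in repression, with Tbx15 needed for normal skeletal growth and Tbx18 for the division of somites into front and back parts. Tbx1 and Tbx20 are best known from the pharyngeal region and the heart.

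Round chondrocytes lie at the end of the bone and pass through columnar, proliferating cells to hypertrophic cells. The measurements were signals of the MAS5 algorithm, linear intensities that the authors had scaled to a common mean on each array. Signals below 100.5 were treated as not measured. This floor is the 95th percentile of 87 probe sets for chemosensory receptor genes, which cartilage should not express. The floor was applied before log2 values were taken, and differences are columnar/hypertrophic minus round in log2 units. A gene above the floor on 1 array gives only a bound, written as "at least". The SD between the log2 differences of probe sets of the same gene was 0.37, taken from 4825 genes above the floor on both arrays. This is a technical spread and not a spread between animals.

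The arrays matched their labels. All 8 chondrocyte markers, among them Col2a1, Acan and Sox9, passed the floor in both samples and lay within 2-fold. Of 7 markers of the hypertrophic zone on the arrays, 5 were higher in columnar/hypertrophic cartilage by 2-fold or more, Col10a1, Panx3, Ihh, Sp7 and Pth1r. All 7 markers of the round and joint-side zone were lower there by that much. The marker lists were chosen with earlier results of these data known, so this match is not an independent check. Of the 9 T-box genes, 5 reached the floor in 1 sample or both, Tbx3, Tbx4, Tbx5, Tbx15 and Tbx18. Over all 18193 named genes, 64.3% did so, the share to set beside each count of measured genes below. Tbx15 and Tbx18 were above it on both arrays, and Tbx3, Tbx4 and Tbx5 on the round array alone. Tbx1, Tbx2, Tbx20 and Tbx22 were under it on both. The count of members above the floor on the columnar/hypertrophic array alone was 0.

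**Figure D1:**
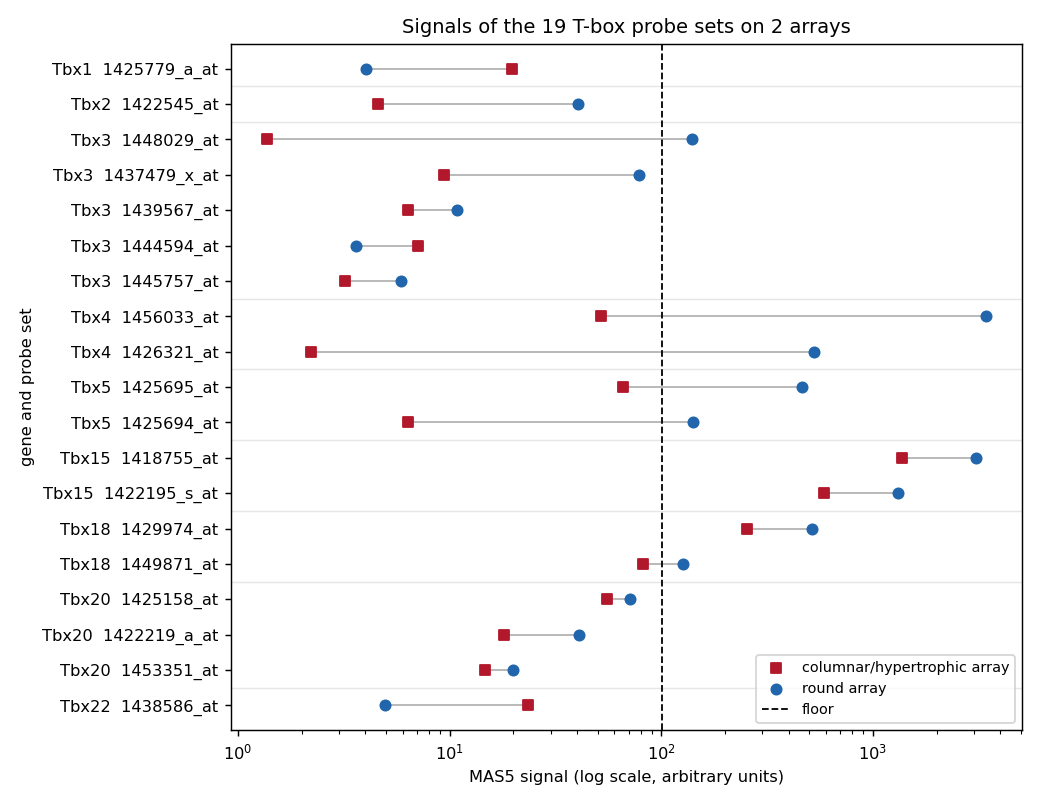
MAS5 signal (horizontal, log scale) of each of the 19 probe sets of the 9 T-box genes on the columnar/hypertrophic array (red squares) and the round array (blue circles). The dashed line is the floor of 100.5. Both Tbx4 probe sets lie left of the line on the columnar/hypertrophic array and at 529 and 3441 on the round array, both Tbx15 probe sets lie above the floor throughout, and every probe set of Tbx1, Tbx2, Tbx20 and Tbx22 lies under it.

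Tbx4, the hindlimb gene, had the largest bound. Its brighter probe set, 1456033_at, had a signal of 52.1 on the columnar/hypertrophic array and 3441 on the round array. The columnar/hypertrophic value fell short of the floor, so the gene was at least 34.2-fold lower there (a bound of -5.10 on the log2 scale). In mixed tissue such as this, fewer cells that express a gene and less RNA per cell cannot be told apart. The other Tbx4 probe set, 1426321_at, had signals of 2.21 and 529 on the columnar/hypertrophic and round arrays, at least 5.26-fold lower. Within the round array, the brighter Tbx4 probe set lay above 95.6% of all probe sets. By the bound of that probe set, 2 of the 11703 genes that reached the floor in 1 sample or both had a lower difference, other bounds included.

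Tbx5, the forelimb counterpart, was also measured on the round array. Its probe set 1425695_at had a signal of 65.7 on the columnar/hypertrophic array and 461 on the round array, at least 4.59-fold lower (-2.20 on the log2 scale). By this probe set, 99 of the 11703 genes had a lower difference. The other probe set, 1425694_at, annotated to the same source sequence, had 6.34 on the columnar/hypertrophic array and 141 on the round array. Its bound was at least 1.41-fold, since the round signal was close to the floor. By all 4 probe sets, Tbx4 and Tbx5 were thus under the floor in columnar/hypertrophic cartilage and above it in round chondrocyte cartilage. Signals of different probe sets are not on a common scale, so the arrays do not say which of the 2 genes was the more abundant.

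The promoter window of Tbx4 is shown for the gene with the largest bound, and that of Tbx18 for a member measured on both arrays and also lower on the columnar/hypertrophic array. Each runs from 250 bases before an annotated RefSeq start to 50 after it (build GRCm38.p6). Tbx4 is on the + strand at chr11:85896515-85896814 and Tbx18 on the - strand at chr9:87731211-87731510. Capitals mark the annotated start base and any match to a searched motif.
Tbx4: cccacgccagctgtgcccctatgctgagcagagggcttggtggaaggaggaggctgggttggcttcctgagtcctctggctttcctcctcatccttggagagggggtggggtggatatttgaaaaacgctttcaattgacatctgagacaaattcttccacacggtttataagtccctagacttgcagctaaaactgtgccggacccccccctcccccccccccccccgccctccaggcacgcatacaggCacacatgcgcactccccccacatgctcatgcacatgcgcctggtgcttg
Tbx18: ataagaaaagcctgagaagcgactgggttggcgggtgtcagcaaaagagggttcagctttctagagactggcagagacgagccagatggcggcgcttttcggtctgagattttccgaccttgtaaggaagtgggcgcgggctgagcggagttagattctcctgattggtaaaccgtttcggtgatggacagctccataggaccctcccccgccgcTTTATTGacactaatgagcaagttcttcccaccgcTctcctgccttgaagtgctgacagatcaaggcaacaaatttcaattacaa
The letters searched, on both strands, were AGGTGTGA (the T-box element), its shorter form AGGTGT, which lies within it, TAATCC (PITX factors), TTTATNG (posterior HOX factors) and AACAAT (SOX factors). Of 32851 promoter windows of this length, 1.28% held the T-box element, 13.7% its shorter form, 7.06% the PITX letters, 10.9% the HOX letters and 10.7% the SOX letters. The Tbx4 window held 0 matches. The Tbx18 window held 1, to the HOX letters, whose first base lies at position -35 from the start. A match shows only that these letters are there. The GC content was 59.0% for Tbx4 and 51.7% for Tbx18, against a median of 52.7% over all windows, with 8 CpG dinucleotides in the Tbx4 window, 15 in the Tbx18 window and a median of 7. In all, 5 of the 9 genes matched the table, with 8 windows.

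Tbx15 and Tbx18, of the same subgroup, were the members with a measured difference rather than a bound. For Tbx15, the probe set 1418755_at had signals of 1375 on the columnar/hypertrophic array and 3054 on the round array, 2.22-fold lower (-1.15 on the log2 scale). The other, 1422195_s_at, had 585 on the columnar/hypertrophic array and 1312 on the round array, 2.24-fold lower. The 2 Tbx15 probe sets differed by 0.014 on the log2 scale, well within the technical spread. Both are annotated to the same source sequence and were read on the same 2 arrays, so they are not independent. The order of probe sets within an array does not depend on the scaling between arrays. In that order the brighter Tbx15 probe set lay above 88.0% of all probe sets on the columnar/hypertrophic array and above 94.9% on the round array.

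For Tbx18, the probe set 1429974_at had a signal of 255 on the columnar/hypertrophic array and 517 on the round array, 2.03-fold lower (-1.02 on the log2 scale). It lay above 64.2% of probe sets on the columnar/hypertrophic array and above 74.2% on the round array. The second Tbx18 probe set, 1449871_at, had 82.3 on the columnar/hypertrophic array and 126 on the round array. That gave a bound of at least 1.26-fold. With equal medians on the arrays, quantile normalization, lowess centring or the mean of its probe sets it was less than 2-fold lower (-0.74, -0.89, -0.89 and -0.68), and with equal medians Tbx15 was too (-0.87). The differences of Tbx15 and Tbx18 lay 0.13 apart, less than the technical spread.

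Tbx3 was barely measured. Of its 5 probe sets, 1448029_at alone passed the floor, with signals of 1.37 on the columnar/hypertrophic array and 139 on the round array, at least 1.38-fold lower. The other 4 had between 3.22 and 9.43 on the columnar/hypertrophic array and between 3.61 and 78.6 on the round array. The related gene Tbx2 had signals of 4.57 and 40.5 on the columnar/hypertrophic and round arrays, under the floor on both. With the floor at the 99th percentile (a signal of 145) Tbx3 was no longer measured.

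The remaining members gave no difference. Tbx20 had 3 probe sets with signals of 55.6, 18.1 and 14.7 on the columnar/hypertrophic array and 71.4, 40.8 and 20.0 on the round array. Tbx1 had a signal of 19.6 on the columnar/hypertrophic array and 4.04 on the round array, and Tbx22, which is needed for the palate, 23.5 on the columnar/hypertrophic array and 4.96 on the round array. Tbx1 and Tbx22 were each measured by 1 probe set. Their higher value on the columnar/hypertrophic array lies far below the floor, where signals have no order. Of the 4 heart markers, Myh6, Nppa and Myl7 were also under the floor on both arrays, and Nkx2-5 had 181 on the columnar/hypertrophic array and 100.5 on the round array, 1.80-fold higher and at the floor on the round array.

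Counted together, 4 members were lower in columnar/hypertrophic cartilage by 2-fold or more, Tbx4, Tbx5, Tbx15 and Tbx18, and 0 were higher by that much. Over all 11703 measured genes, 6.37% were lower and 4.31% higher by this rule. A gene above the floor on the round array alone can only come out lower, as Tbx3, Tbx4 and Tbx5 did, and 17.8% of the 1067 such genes had a bound of 2-fold or more. Of the 401 genes measured on the columnar/hypertrophic array alone, of which 0 were members, 24.2% had such a bound the other way. Of the 10235 genes measured in both samples, 3.98% were 2-fold higher or more and 5.42% 2-fold lower or more, and these last include Tbx15 and Tbx18. The median over the 5 measured members, 3 of them bounds, was -1.15, beside -0.05 over all 11703 genes. The bounds of Tbx3, Tbx4 and Tbx5 give these genes no order among the members, except that the bounds of Tbx4 and Tbx5 lay beyond the differences of Tbx15 and Tbx18. Tbx15 and Tbx18 could not be placed apart.

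**Figure D2:**
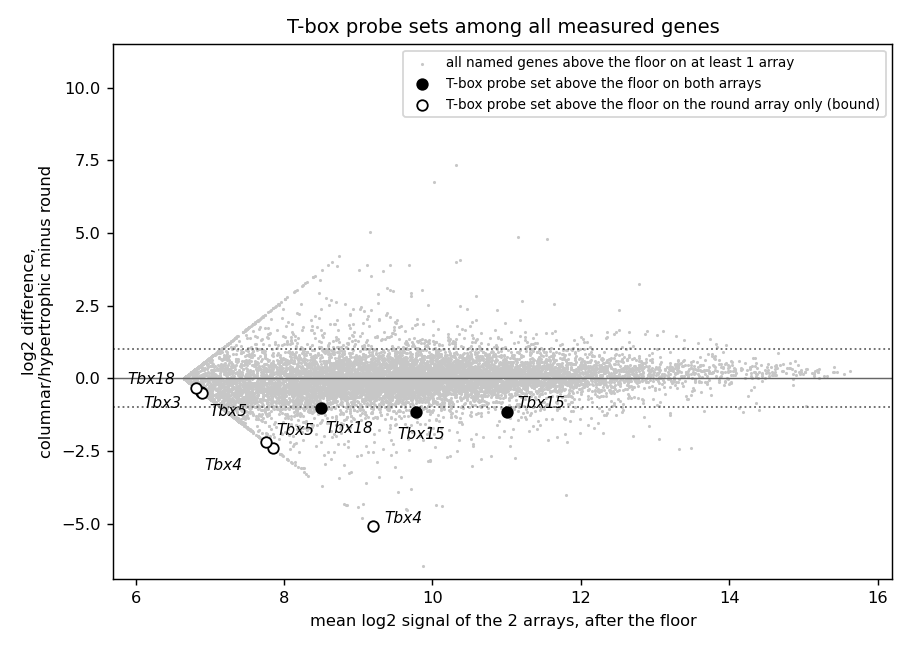
Log2 difference (vertical, columnar/hypertrophic minus round) against the mean log2 signal of the 2 arrays after the floor (horizontal), 1 grey point for each of 11703 genes, with the 9 measured T-box probe sets in black (filled, both arrays; open, round array only, a bound); dotted lines mark 2-fold. All 9 lie below 0, the brighter Tbx4 probe set at -5.10, but the 6 open ones could only lie there. The lines of points at the left edge are genes raised to the floor on 1 array.

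The scaling between the arrays moves these counts. The 2 arrays had the same mean signal after the lowest and highest 2% of probe sets were left out (500.0 each), but the median probe set had 105 on the columnar/hypertrophic array and 128 on the round array. Scaling to equal medians moved the median difference of all measured genes by 0.28. Relative to that median, Tbx15 lay at -1.09 with equal medians and at -1.10 as deposited, and Tbx18 at -0.96 with equal medians and -0.97 as deposited. Since equal medians add 0.28 to each gene measured on both arrays, small negative differences given below, such as those of Mga, Wars2, Cep162 and Yap1, turn positive with them. Over all genes at least 2-fold apart, 59.6% were lower on the columnar/hypertrophic array as deposited, 30.5% with equal medians, 50.6% with quantile normalization and 50.3% with lowess centring. Tbx4 and Tbx5 were at least 2-fold lower under every one of these scalings.

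**Figure D3:**
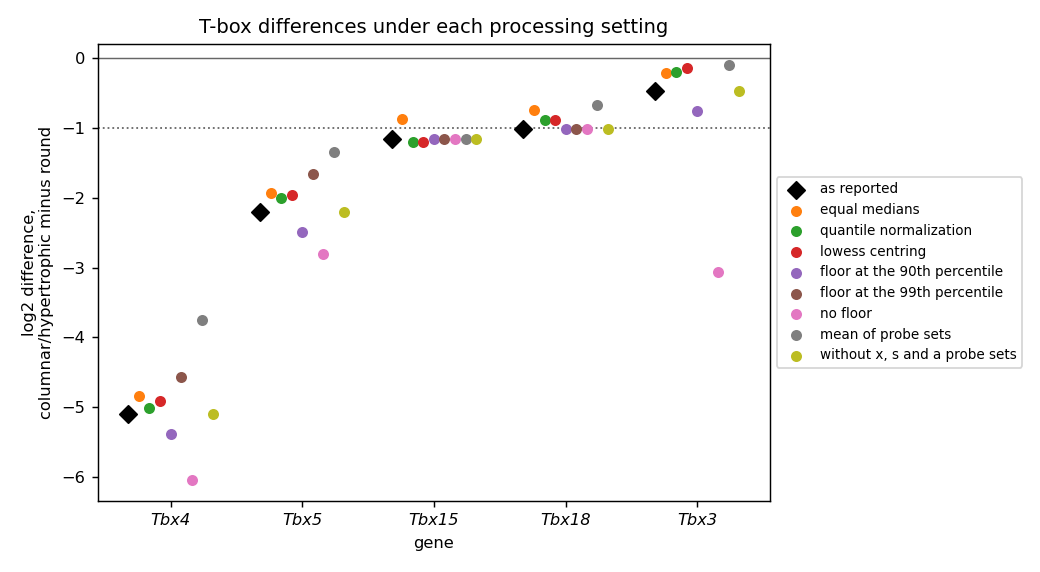
Log2 difference (vertical, columnar/hypertrophic minus round) of the 5 measured T-box genes as reported (black diamonds) and under 8 other processing settings (coloured circles); the dotted line marks 2-fold lower. Tbx4 (-6.05 to -3.75 under the other settings) and Tbx5 (-2.81 to -1.35) stay below the dotted line, Tbx15 lies above it under equal medians alone, Tbx18 under 4 settings, and Tbx3 lies above it except without a floor.

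Tbx2, Tbx4, Tbx3 and Tbx5 lie in pairs in the genome. On chromosome 11, Tbx2 is the coding gene next to Tbx4, and on chromosome 5, Tbx3 is next to Tbx5. In round chondrocyte cartilage Tbx4 and Tbx5 passed the floor by both probe sets, whereas Tbx2 was under it and Tbx3 passed it by 1 of 5. Of the coding genes on the outer side of the pairs, Bcas3, beside Tbx2, was under the floor on both arrays. Brip1, a DNA repair helicase gene beside Tbx4, had signals of 125 on the columnar/hypertrophic array and 171 on the round array (-0.45), and Med13l, a Mediator subunit gene beside Tbx3, differed by -0.46. Rbm19, beside Tbx5, had 151 on the columnar/hypertrophic array and 87.9, under the floor, on the round array, and so was higher by a bound of 0.59 on the log2 scale. Tbx15 on chromosome 3 has Wars2 (-0.16) as a neighbour, and Tbx18 on chromosome 9 lies between Cep162 (-0.25) and Nt5e. Nt5e, which encodes the cell-surface nucleotidase CD73, went the other way, with 1866 on the columnar/hypertrophic array and 744 on the round array (1.33).

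The other T-box genes of the mouse gave 1 measured gene. Mga, a very large T-box and bHLHZip protein that pairs with MAX, had signals of 1294 on the columnar/hypertrophic array and 1399 on the round array (-0.11), with its other measured probe sets between -0.29 and 0.06. Tbx6, Tbx19, Tbx21, Tbr1 and Eomes were under the floor on both arrays, and T and Tbx10 had no probe set that names them alone.

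Other genes that mark limb type were measured beside Tbx4 and Tbx5. Pitx1, the homeobox gene that switches on Tbx4 in the hindlimb, had signals of 676 on the columnar/hypertrophic array and 1363 on the round array (-1.01, and -1.05 by its other probe set). Unlike Tbx4, it remained well above the floor in columnar/hypertrophic cartilage. Hoxc10, also of the hindlimb, had 428 on the columnar/hypertrophic array and 688 on the round array (-0.68), and Isl1 was under the floor on both. Of the forelimb-level genes, Hoxc4 had 260 on the columnar/hypertrophic array and 812 on the round array (-1.64), Hoxc5 104 and 265 (-1.36), and Hoxa5 657 and 1285 (-0.97, but -0.31 by its other probe set). Genes of both limb types were therefore above the floor on each array. Whether the portions came from 1 limb type or from several is not given in the labels.

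Of 21 genes of limb outgrowth and patterning on the arrays, 12 were measured, beside 64.3% of all named genes. Among the 12, 6 were lower in columnar/hypertrophic cartilage by 2-fold or more and 0 higher. Their median, bounds included, was -0.88, beside -0.05 over all measured genes. Only 7 were measured on both arrays, 4 of them within 2-fold. The others passed the floor on the round array alone and could only come out lower. Over all 11703 measured genes, 6.37% were lower and 4.31% higher by this rule, and 17.8% of genes on the round array alone were lower by it. Grem1 is also a marker of the round zone and Twist1 of perichondrium. The 4 largest were Grem1, a BMP antagonist gene (a bound of -4.32 on the log2 scale), Meis2 (signals of 108 on the columnar/hypertrophic array and 431 on the round array), Prrx1 (a bound of -1.40) and Bmp4 (a bound of -1.33). Meis2 and Prrx1 encode homeobox factors of limb mesenchyme, and the other measured probe sets of Meis2 ranged from -2.12 to -0.21. Fgf10, the growth factor gene that Tbx4 and Tbx5 activate in the limb bud, had 43.5 on the columnar/hypertrophic array and 70.8 on the round array, under the floor on both, as were Fgf8 and Shh.

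Of the genes for proteins that act with T-box factors, 15 were measured, 11 of them on both arrays. Of these 11, 10 were within 2-fold by the probe set of highest signal. So were most genes, since of all 10235 measured on both arrays 5.42% were lower and 3.98% higher by 2-fold or more. Tle5, Gata4 and Gata5 passed the floor on the round array alone, with bounds of at least 1.19-fold, 1.40-fold and 1.07-fold lower, which do not place them within 2-fold. The median of the 15, bounds included, was 0.01 (0.37 with equal medians, where the median of all genes was 0.22). Tle2, of the Groucho co-repressor family that TBX15 and TBX18 bind, differed by -1.51 on the log2 scale, with signals of 215 on the columnar/hypertrophic array and 613 on the round array. Chd7, a chromatin remodeller gene, was at least 3.93-fold higher, with 395 on the columnar/hypertrophic array and 18.4 on the round array, and its other measured probe set gave a bound of 1.91 on the log2 scale. Among the remaining members, the largest differences were those of Nkx2-5 (0.85, from a round signal at the floor) and Tle3 (-0.65, other measured probe sets -1.13 to -0.19). The TBX5 partner genes Wwtr1 (0.26, other probe sets 0.67 and 0.71) and Yap1 (-0.09, other probe set 0.11) and Pdlim7 (0.38, other probe sets -0.53 and 0.13), whose product binds TBX4 and TBX5, were within 2-fold.

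Of 9 genes known as targets of T-box factors, 3 were measured, beside 64.3% of all named genes. By 2-fold or more, 1 of the 3 was higher, beside 4.31% of all 11703 measured genes. Cdkn1a, the gene for the cell cycle inhibitor p21 that TBX2 represses, had signals of 990 on the columnar/hypertrophic array and 373 on the round array, 2.66-fold higher (1.41 on the log2 scale, and 2.73 by its other probe set). Gja1, the connexin 43 gene, which TBX2 and TBX3 repress in the heart, had 5686 on the columnar/hypertrophic array and 4605 on the round array (0.30, other probe sets 0.18 to 0.80). Ndrg1 differed by 0.11, with its other measured probe sets between -0.45 and 0.31. Tbx2, under the floor on both arrays, gives no level to set beside these values.

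**Figure D4:**
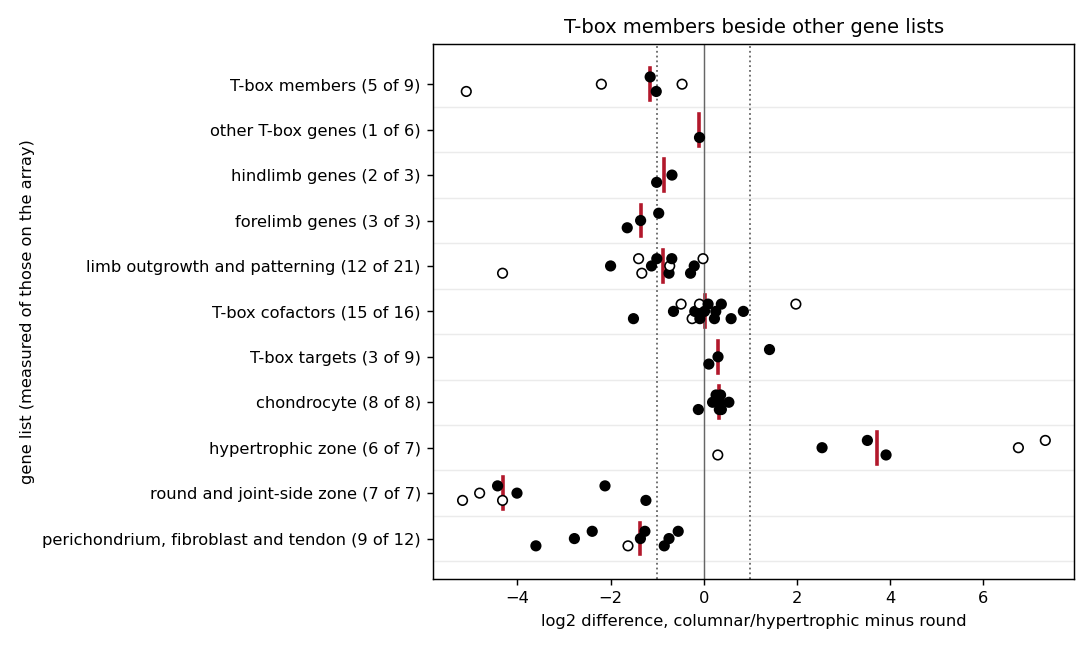
Log2 difference (horizontal, columnar/hypertrophic minus round) of the measured genes of the T-box members and of 10 other lists (rows, with measured genes of those on the arrays), 1 point per gene, filled where the gene is above the floor on both arrays and open for bounds, with red bars for list medians and dotted lines at 2-fold. The T-box members have a median of -1.15, the cofactor list 0.01, the perichondrium, fibroblast and tendon list -1.36 and the round and joint-side list -4.32.

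Markers of connective tissue around the cartilage went in the same direction as the T-box genes. By 2-fold or more, 1 marker each of the skeletal muscle, osteoblast and blood lists went the other way. Of 12 markers of perichondrium, fibroblasts and tendon, 9 were measured. In columnar/hypertrophic cartilage 6 of them were lower by 2-fold or more and 0 higher, and their median was -1.36. Of the 9, 8 were measured on both arrays, 3 of these within 2-fold. Over all measured genes, 6.37% were lower and 4.31% higher by this rule. The summed signal of the 12 was 23690 on the columnar/hypertrophic array and 63795 on the round array, most of it from Col1a2 and Col3a1. Signals of different probe sets are not on a common scale, so these sums do not measure an amount of tissue. Postn was 12.2-fold, Fap 6.86-fold, Col3a1 5.26-fold and Tnmd, a tendon gene, at least 3.09-fold lower, while Dpt, Scx and Thy1 were under the floor on both arrays and none was at 0. Tbx15 and Tbx18 are known from such mesenchyme, and the part of this tissue in the T-box differences was not tested. Markers of endothelium were under the floor on both arrays (5 of 5), and so were 4 of 7 for skeletal muscle, where Tnnt3 alone was past 2-fold (2.09, a bound), 3 of 4 for heart, 2 of 4 for epidermis, 2 of 4 for osteoblasts and 2 of 3 for blood. Alpl of the osteoblast list had 455 on the columnar/hypertrophic array and 69.5 on the round array, at least 4.53-fold higher. Ifitm5 differed by 0.58, within 2-fold, and Dmp1 and Phex were the osteoblast markers under the floor on both arrays. The macrophage gene Lyz2 of the blood list had 293 on the columnar/hypertrophic array and 130 on the round array, 2.25-fold higher.

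The genes nearest to each member in the plane of the 2 floored log2 signals are those with the most similar pair of signals. Signals of different probe sets are not on a common scale, and for Tbx3, Tbx4 and Tbx5 the columnar/hypertrophic value in this plane is the floor itself, so their nearness rests on the round signal. Nearest to Tbx4 were Sfrp2, Prg4 and Wif1, at distances of 0.080, 0.29 and 0.55. All 3 are secreted factor genes among the round and joint-side markers, with signals between 2378 and 3637 on the round array. That list was itself chosen with earlier results of these data known. Nearest to Tbx5 were Glis3, Cxcl12 and Glrb (0.017 to 0.034), of which Cxcl12 encodes a chemokine of mesenchymal and stromal cells. Nearest to Tbx15 were Gli3, the hedgehog-pathway transcription factor gene of limb patterning, the cell adhesion gene Ncam1 and Mxra8 (0.076 to 0.11). Tbx18 lay nearest to Caprin2, Rexo5 and Tgfb1i1 (0.035 to 0.056), and Tbx3, near the floor, to Alpi, Il3ra and Rtbdn (up to 0.0017).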

How the data were processed

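Total RNA of 2 mixtures of 3 cartilage portions was hybridised to 2 Affymetrix mouse genome arrays. The authors deposited 1 linear MAS5 intensity for each of 45101 probe sets, scaled to a common mean (the submitters' notes list MAS5; its version is not given in the sources used here). RMA, which yields log values, is the method the paper lists, and the deposited values are linear. MAS5 signals of weakly expressed genes are noisy. The platform annotation gave 34958 probe sets 1 gene symbol, 932 several and 9211 none used here, and only the first were used. Tbx1, Tbx2 and Tbx22 rest on 1 probe set each.

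Each gene was represented by its probe set of highest mean floored log2 signal. No test was possible with single arrays, and genes were counted at 2-fold. All members were named with every probe set, with the 3 nearest genes of each measured one, the measured genes of the T-box and limb-type lists, and up to 4 genes with the largest differences of each other list. Further genes were named after their values were seen. The members and lists were chosen with earlier results of these data known. Alternatives were 3 scalings (equal medians, quantile, and lowess using a span of 0.3), no floor or floors at the 90th and 99th percentile, the mean of probe sets, and leaving out probe sets with x, s or a in their suffix. The scripts' count of genes past 2-fold was tested on simulated data, which says nothing of the spread between animals. Python 3.11.15, numpy 2.4.6, pandas 2.3.3 and statsmodels 0.14.6 were used, with gene neighbours and promoter sequences from RefSeq (GRCm38.p6).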

Additional observations from a re-analysis of the deposited data

How the results depend on the processing

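The number of T-box genes lower in columnar/hypertrophic cartilage by 2-fold or more was 4 as reported and 2 with equal medians (Tbx4 and Tbx5). It was 3 with quantile normalization, with lowess centring and with the mean of probe sets, and 6 without a floor. The genes added without a floor were Tbx2 and Tbx3, by probe sets whose signals lay under the floor on both arrays. The number at least 2-fold higher was 0, but 2 without a floor, Tbx1 and Tbx22, whose signals lay under the floor. The median of the measured members ranged from -1.41 to -0.87 over the 8 alternatives. Tbx15 was at least 2-fold lower under 7 of 8 alternatives and Tbx18 under 4 of 8. All differences of the 5 measured members stayed below 0 under the alternatives that gave a value. With a floor, Tbx3, Tbx4 and Tbx5 passed it on the round array alone and could only come out lower. Their sign under those settings therefore adds nothing. Without probe sets with x, s or a in their suffix, Tbx1 had none left. Among the limb outgrowth genes, 6 were at least 2-fold lower, but 4 with equal medians or the 99th percentile floor, and 3 with probe sets averaged. Tle2, whose only probe set has the suffix a, had none left without the x, s and a probe sets. Pitx1 was under 2-fold with each of the 3 other scalings, and 1 forelimb-level gene in place of 2 was past it with probe sets averaged or the 99th percentile floor. The cause of these changes was not tested. No paired analysis was possible because each group holds 1 array. The bounds of Tbx3, Tbx4 and Tbx5 are set by the floor, and the number of arrays limits every value.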
